A study of Mus musculus with 24 samples.

Results

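RNA-seq counts from the 1st and 2nd pharyngeal arches of mouse embryos were compared between 4 libraries labelled Kat6a homozygous knockout and 4 wild type libraries, 8 of the 24 libraries in the series. They were chosen by genotype alone: Kat6a -/- with Dlx5 +/+ against Kat6a +/+ with Dlx5 +/+. All 8 came from female C57BL/6 embryos at stage E10.5 and from the same mouse facility, given in the labels as batch 2. The 4 Kat6a heterozygous libraries (Kat6a +/-, Dlx5 +/+, same stage and strain) are shown beside them. Their replicate 4 came from the other facility, batch 1. The rest of the series held Dlx5 heterozygous, Dlx5 homozygous and Kat6a Dlx5 double heterozygous knockouts at the same stage, from both facilities. The test was fitted over all 24 libraries, so these genotypes entered the estimate of the spread. The labels call the replicates of a genotype biological. They do not say how the Kat6a allele was made or how many embryos went into a library.

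Kat6a, also called Moz, encodes the catalytic subunit of a histone acetyltransferase complex that marks histone H3 at target genes. It is known for its part in Hox gene expression along the body axis, in blood stem cells, and in the formation of the palate, face and heart. The pharyngeal arches are outgrowths of the embryonic head and neck made mostly of neural crest mesenchyme. They are covered by surface epithelium, lined by endoderm and pass around vessels, blood, muscle precursors and growing nerves. RNA of a whole arch therefore holds all of these cells, and fewer cells of a type cannot be told apart from less RNA per cell.

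Levels are given in CPM, the count of a gene divided by the TMM-scaled library total and set to a common scale. Total counts per library ran from 11323153 to 28198111, and wild type replicate 1 was the deepest. A gene was called when the Benjamini-Hochberg adjusted p of edgeR's quasi-likelihood test was under 0.05 over all 14506 genes tested. Kat6a itself (chromosome 8, 22859442 to 22943259, GRCm38) stood at 247, 203, 207 and 148 CPM in wild type replicates 1 to 4. In the libraries labelled homozygous it stood at 242, 238, 219 and 211 CPM. The groups overlapped, and the log2 fold change was 0.17 (SE 0.10, edgeR adjusted p = 0.474). A gene total does not show a deletion of part of a gene, so it does not check the labels, and every direction below is that of the libraries labelled homozygous. Replicate 2 of both groups stood apart from the other libraries. Their summed neuron markers reached 477 CPM in wild type and 301 CPM in homozygous replicate 2, against 46.5 to 75.6 CPM in the other 6. The part of this difference between libraries in the results was not tested, and calls that were lost without both replicate 2 libraries are named with that adjusted p.

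The homozygous arches differed from wild type in a small share of genes, and more of these were lower than higher. edgeR called 222 of 14506 genes (1.53%), of which 154 were lower (1.06%) and 68 higher (0.469%). The median log2 fold change was −0.45 among those called lower, 0.48 among those called higher and 0.01 over all genes tested. Changes over 2-fold were seen in 27 of the lower and 10 of the higher genes. All 4 homozygous libraries lay below all wild type libraries in 141 of the 154, and above in 57 of the 68. Of all genes tested, 6.4% had groups that did not overlap. The groups of genes that follow were homeobox, forkhead and odd-skipped transcription factors, brain genes, blood genes and matrix genes. Their lists were chosen with earlier results of these data known. The share of each list that was called, set beside that of all genes, is therefore a description only. With only the 8 libraries of both groups in the fit edgeR called 64 genes, and with both replicate 2 libraries left out of the full fit it called 73. Without wild type replicate 1, the deepest library, it called 444, and without wild type replicate 2 or homozygous replicate 1 or 2 it called 142, 122 and 141. Of 74 called genes followed singly, 48 kept the call without any single library, 39 without both replicate 2 libraries and 38 with the 8 libraries alone. S100a9 is among the 48 and the 39, though its call is a description only.

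**Figure D1:**
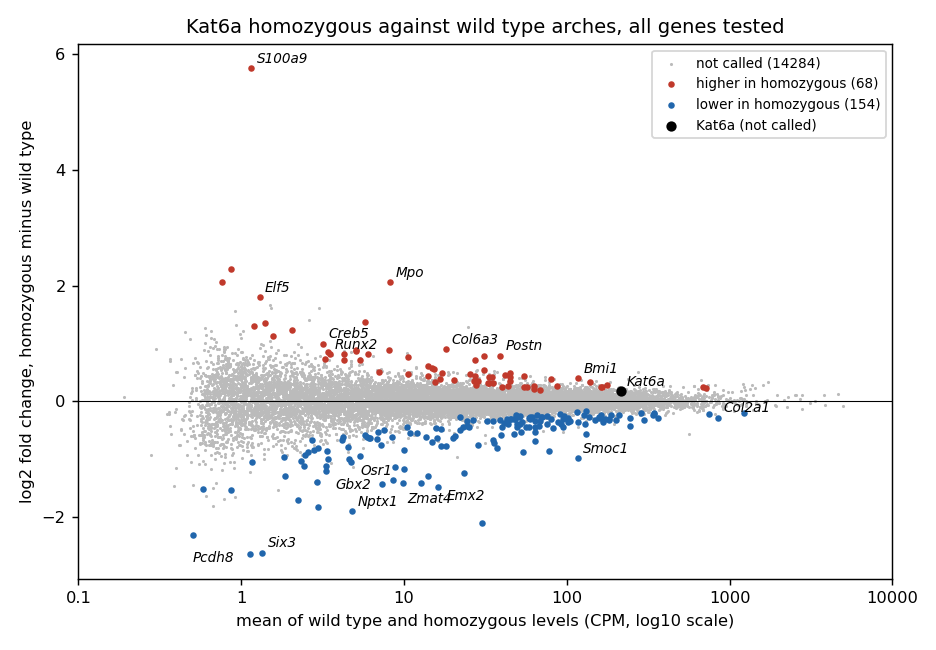
Log2 fold change (homozygous minus wild type, y axis) against the mean level of both groups (CPM, log10 scale, x axis) for the 14506 genes tested. Red points are the 68 genes called higher, blue points the 154 called lower, grey points the rest and the black point Kat6a, which was not called.

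Homeobox genes outside the Dlx family were mostly lower where they were called: 8 of 102 tested fell and 1 rose (8.82%, against 1.53% of all genes tested). The other 104 of the 206 genes on the lists fell under the filter on low counts. Six3 and En2 fell most on the log2 scale, from low levels. Emx2, which patterns the dorsal forebrain (chromosome 19, 59458690 to 59465357, GRCm38), stood at 21.2, 27.2, 22.7 and 24.6 CPM in wild type replicates 1 to 4 and at 11.02, 2.63, 13 and 7.23 CPM in homozygous replicates 1 to 4. The groups were well apart, and homozygous replicate 2 was the lowest library (log2 fold change −1.48, SE 0.24, adjusted p = 0.00223). Six3, needed for forebrain and eye (chromosome 17, 85613608 to 85626191), stood at 2.797, 1.8, 1.99 and 2.69 CPM in wild type and 0.377, 0.339, 0.517 and 0.264 CPM in homozygous libraries (−2.62, SE 0.38, adjusted p = 0.000186). It rested on 155 counts in the 4 wild type libraries and 18 in the 4 homozygous libraries. Gbx2, which positions the boundary of midbrain and hindbrain (chromosome 1, 89927962 to 89931176), stood at 8.61, 13.7, 10.2 and 10.7 against 4.23, 2.97, 5.94 and 2.73 CPM (−1.43, SE 0.19, adjusted p = 6.3e-05). For Six3 and Gbx2, too, all homozygous libraries lay below all wild type libraries. The call of Emx2 was lost with only the 2 groups in the fit (adjusted p = 0.207).

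Homeobox genes at the midbrain, in the hindbrain and in the arch mesenchyme fell by less or from lower levels. En2, a midbrain and cerebellum gene, was near the detection limit, with 56 counts in all wild type and 8 in all homozygous libraries (−2.31, SE 0.59, adjusted p = 0.043). Hoxb3, of hindbrain and posterior arches, stood at 5.06, 4.91, 3.55 and 4.79 CPM in wild type and 2.87, 1.695, 1.89 and 2.73 CPM in homozygous libraries (adjusted p = 0.0391). Of the 39 Hox genes on the list only 4 were tested, and Hoxb3 was the one called (25%, against 1.53% of all genes tested). Hoxb2, its neighbour in the cluster, stood at 4.52, 4.99, 5.19 and 8.496 against 3.77, 3.05, 3.01 and 3.79 CPM, apart but not called (adjusted p = 0.0831). Hoxa2, the selector gene of the 2nd arch, had 11.8 CPM in wild type and 8.36 CPM in homozygous libraries, with overlapping groups (−0.48, SE 0.17, adjusted p = 0.178). Barx1, of the proximal arch and tooth mesenchyme, stood at 136, 184, 140.4 and 163 CPM against 121, 96.4, 104 and 101 CPM (−0.56, SE 0.12, adjusted p = 0.0218). Meis1, a TALE partner of Hox proteins, stood at 79.1, 81.2, 96.3 and 85.7 CPM against 65.4, 63.6, 71.7 and 60.98 CPM (−0.39, adjusted p = 0.00668). Tshz1, a zinc finger homeobox gene of middle ear and palate, fell by 0.34 on the log2 scale (adjusted p = 0.0304). The groups did not overlap in the genes called here, as in 3.54% of all genes tested on the lower side.

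The calls of En2 and Hoxb3 were each ended by 7 of the 8 single libraries, all but wild type replicate 3 (up to 0.129 and 0.135). Barx1 lost its call without wild type replicate 2 or 4 or homozygous replicate 2, 3 or 4 (up to 0.0829), and Tshz1 without wild type replicate 2 or 3 or homozygous replicate 2 or 4 (up to 0.101). All 4 also lost it without both replicate 2 libraries (adjusted p = 0.144, 0.266, 0.208 and 0.267). Emx2, Six3, Gbx2 and Meis1 kept their calls without any single library and without both replicate 2 libraries.

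edgeR called 0 of 31 paired-class, LIM and POU homeobox genes tested, several of which mark arch mesenchyme. Of these, 3 had an unadjusted p under 0.05 (9.68%, beside 13.6% of all genes tested), and DESeq2 and limma voom called 1 each. Prrx1, the most abundant of them per length, had 764 ± 94.5 CPM in wild type and 831 ± 105 CPM in homozygous libraries (mean ± SD, n = 4 each; 0.12, adjusted p = 0.691). Lhx8 and Lhx6, LIM genes of the oral arch, stood at −0.07 and −0.16 on the log2 scale, with adjusted p = 0.807 and 0.514. Pitx1, of the oral side of the 1st arch, stood at 92.9, 133, 95.4 and 125 against 80.3, 60.7, 91.9 and 75.96 CPM without being called (−0.53, adjusted p = 0.199). Msx1 and Msx2, of distal arch mesenchyme, stood at −0.01 (SE 0.29) and −0.08 (SE 0.08) and were not called. Of the 8 Dlx genes and antisense transcripts 7 fell (87.5%, against 1.53% of all genes tested), from −2.103 for Dlx6os1 to −0.36 for Dlx2. Dlx6 stood at −0.29 (adjusted p = 0.169). The call of Dlx2 was lost without wild type replicate 1 or 2 or homozygous replicate 2, 3 or 4 (up to 0.0842) and without both replicate 2 libraries (0.192). Dlx6os1 and Dlx1as lie antisense to a Dlx gene. With the strand setting of the counting not given, reads from where such a pair overlaps cannot be told apart.

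**Figure D2:**
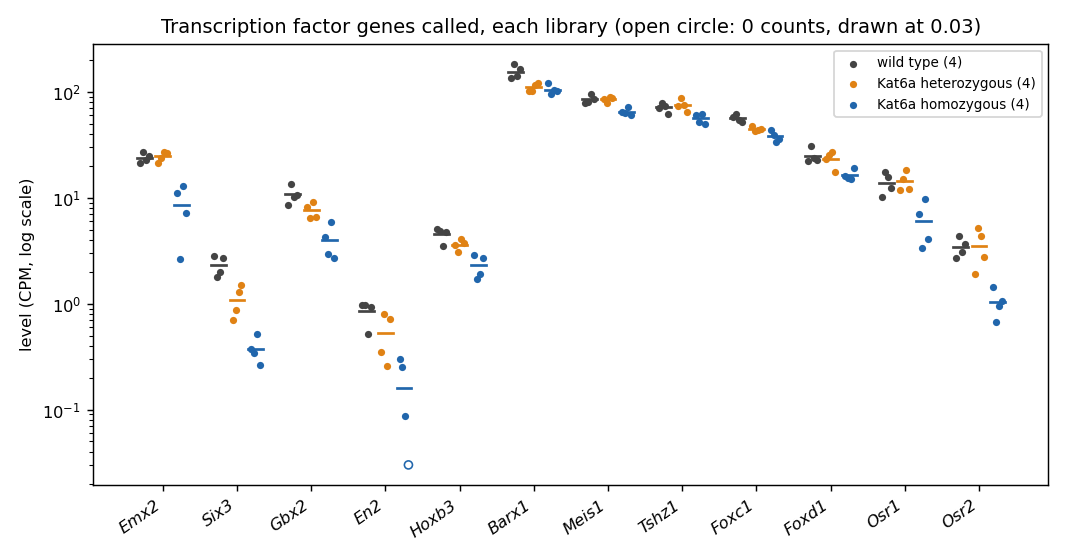
Level in CPM (log scale, y axis) of 12 called homeobox (outside the Dlx family), forkhead and odd-skipped genes in each of 4 wild type (grey), 4 Kat6a heterozygous (orange) and 4 Kat6a homozygous (blue) libraries, with a bar at each group mean. Every gene drawn is lower in the homozygous libraries, and the heterozygous libraries lie at the wild type level for Emx2, Osr1 and Osr2.

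Among forkhead genes, which encode winged-helix transcription factors, 2 of 33 tested fell and 0 rose (6.06%, against 1.53% of all genes tested). Foxc1, which acts in mesenchyme of the skull, eye and jaw, stood at 57.8, 61.6, 54.7 and 51.7 CPM in wild type and 44.2, 39.6, 33.8 and 35.8 CPM in homozygous libraries (−0.56, SE 0.08, adjusted p = 0.000314). Foxd1, a hedgehog-responsive gene of arch mesenchyme, stood at 22.2, 30.7, 23.7 and 22.96 CPM against 15.9, 15.3, 15.2 and 19.03 CPM (−0.60, SE 0.12, adjusted p = 0.00927). Neither gene's groups overlapped. Foxd1 lost its call without both replicate 2 libraries (adjusted p = 0.122). The most abundant forkhead genes per length that were not called were Foxp4, Foxm1 and Foxk2, at −0.19, 0.04 and 0.09 on the log2 scale. Foxc2, the close relative of Foxc1, stood at 19.04, 27.1, 19.4 and 20.1 against 18.5, 14.5, 17.3 and 14.5 CPM, apart but not called (−0.39, adjusted p = 0.241). Foxf1 and Foxf2, hedgehog targets of arch mesenchyme, stood at −0.03 and −0.12.

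Both odd-skipped genes, zinc finger factors needed for palate growth and joint formation, were lower. Osr1 (chromosome 12, 9574442 to 9581500) stood at 10.3, 17.6, 15.7 and 12.4 CPM in wild type and at 7.02, 3.39, 9.82 and 4.05 CPM in homozygous replicates 1 to 4 (−1.18, SE 0.24, adjusted p = 0.0145). Osr2 (chromosome 15, 35296098 to 35303305) stood at 2.69, 4.34, 3.11 and 3.701 CPM and 1.43, 0.678, 0.947 and 1.06 CPM (−1.71, SE 0.32, adjusted p = 0.00338). Replicate 2 was the highest wild type and the lowest homozygous library for both genes, and without both replicate 2 libraries neither was called (adjusted p = 0.126 and 0.0791). With only the 8 libraries in the fit Osr1 was not called either (adjusted p = 0.198). The other 11 of 13 genes on the palate list were not called (15.4% called, against 1.53% of all genes tested).

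On the list of arch mesenchyme regulators, 4 of 41 genes tested rose and 3 fell (17.1%, against 1.53% of all genes tested), Barx1 among the latter. Runx2, the master regulator of bone formation (chromosome 17, 44495987 to 44814797), stood at 2.51, 2.78, 2.42 and 2.44 CPM in wild type and 5.28, 2.88, 4.995 and 4.67 CPM in homozygous libraries (0.81, SE 0.18, adjusted p = 0.0202). Homozygous replicate 2, at 2.88 CPM, was just above the highest wild type library, and the other 3 were at least 4.67 CPM. Creb5, a bZIP factor of joint and limb mesenchyme, stood at 2.08, 1.96, 2.59 and 1.85 against 4.98, 4.07, 4.31 and 3.52 CPM (1.00, adjusted p = 0.0108). Smad9, a BMP signal transducer, and Id2, a target of BMP signalling, rose by 0.44 and 0.28 on the log2 scale. The nuclear receptor genes Nr2f1 and Nr2f2, also called COUP-TFI and COUP-TFII, fell by 0.32 and 0.33 from 186 and 201 CPM. Runx2 lost its call without homozygous replicate 1, 3 or 4 or wild type replicate 4 (adjusted p up to 0.097), and Creb5 without homozygous replicate 1 (0.0567). Id2, Smad9 and Nr2f1 lost theirs without 6, 4 and 5 of the single libraries (up to 0.13, 0.0842 and 0.159). Without both replicate 2 libraries the calls of Creb5, Smad9, Id2, Nr2f1 and Nr2f2 were lost (adjusted p = 0.0791, 0.151, 0.0949, 0.344 and 0.0719), and Runx2 kept its call. Nr2f2 was also not called with only the 8 libraries in the fit (0.0807).

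Brain genes were lower where they were called, with 1 exception: of 90 tested, 8 fell and 1 rose (10%, against 1.53% of all genes tested). Besides the homeobox genes Emx2, Six3, Gbx2, En2 and Hoxb3, already counted above, those that fell were Bhlhe22, Nptx1 and Pcdh8. Nptx1, which encodes a secreted neuronal pentraxin that acts at synapses (chromosome 11, 119538719 to 119547820), stood at 8.93, 6.14, 8.301 and 6.81 CPM in wild type and at 2.26, 1.695, 2.76 and 1.41 CPM in homozygous libraries (−1.897, SE 0.17, adjusted p = 1.45e-07). Every homozygous library was below 2.77 CPM and every wild type library above 6.13 CPM. Pcdh8, a protocadherin of cell adhesion, stood at 2.65, 2.29, 1.04 and 1.85 CPM against 0.226, 0.17, 0.172 and 0.705 CPM (−2.65, SE 0.38, adjusted p = 0.000186), from 136 counts in wild type and 15 in homozygous libraries. Bhlhe22, a neuronal bHLH repressor, stood at 1.18, 2.29, 0.951 and 0.757 against 0.604, 0.509, 0.172 and 0.441 CPM (−1.54, adjusted p = 0.0292), and it lost its call without wild type replicate 2 or homozygous replicate 2, 3 or 4 (up to 0.133) and without both replicate 2 libraries (0.201). Ebf2, an early B cell factor gene of neurons and mesenchyme, was the one that rose, from 24.5, 19.1, 24.1 and 14.4 to 36.1, 39.8, 27.2 and 32.7 CPM (0.71, adjusted p = 0.0263), and its call was lost without wild type replicate 2 or 4 or homozygous replicate 1 or 2 (up to 0.089) and without both replicate 2 libraries (0.227).

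Most general neuron genes were not called. Of 26 neuron genes tested, Nptx1 fell, Ebf2 rose and 24 were not called (7.69% called, against 1.53% of all genes tested). The median of the list was −0.44 with 23 of 26 values below 0, beside 0.01 over all genes, and the neuron marker sum was far higher in replicate 2 of both groups (477 against 301 CPM). Tubb3, a tubulin of neurons, stood at 10.4, 128, 10.6 and 8.66 CPM in wild type and 5.28, 69.7, 8.61 and 10.05 CPM in homozygous libraries, high only in replicate 2 of either group (−0.72, SE 1.08, adjusted p = 0.822). edgeR called 0 of 16 neural progenitor genes (6 at an unadjusted p under 0.05, 0 called by DESeq2 and 2 by limma voom), and Nes, an intermediate filament of progenitors, stood at −0.29 (adjusted p = 0.115). Of the 7 neural tube progenitor markers, Sox3 and Olig3 were under 0.5 CPM in all 8 libraries, and the sum of the 7 ran from 25.8 to 33.1 CPM in wild type and 27.2 to 35.5 CPM in homozygous libraries. Otx2, a further gene of the anterior brain, stood at 3.87, 3.19, 2.51 and 2.44 against 2.26, 4.58, 1.98 and 4.85 CPM with overlapping groups (adjusted p = 0.886).

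Some of the largest falls lay outside the lists. Zmat4, a zinc finger gene, stood at 14.2, 16.4, 16.3 and 10.9 CPM in wild type and 7.699, 3.65, 5.94 and 4.14 CPM in homozygous libraries (−1.42, SE 0.18, adjusted p = 3.91e-05). It lies at 23647326 to 24063117 on chromosome 8, within 5 Mb of Kat6a. It was the one gene called of 62 tested in that window, a share near the 1.53% of all genes tested. The median of the window was −0.01. Abhd15, a gene of lipid metabolism in fat cells, stood at 5.59, 4.01, 4.32 and 4.54 against 1.36, 1.102, 1.29 and 1.498 CPM (−1.82, SE 0.20, adjusted p = 1.77e-06). Slc8a3, a sodium-calcium exchanger gene of muscle and nerve, stood at 5.2, 3.84, 3.805 and 4.04 against 1.81, 0.763, 2.15 and 1.76 CPM (−1.39, SE 0.21, adjusted p = 0.000281). The groups did not overlap in any of these genes. The rule that names genes by size demands this, so it is a description only. Among all genes tested, 3.54% were apart on the lower side. All 3 calls were kept with any single library, or both replicate 2 libraries, left out.

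Blood genes were higher where they were called, apart from Coro1a and Nr2f2: of 98 tested on the blood and endothelial lists, 8 rose and 2 fell (10.2%, against 1.53% of all genes tested). They included genes of granulocytes, the white cells that carry antimicrobial granules. Mpo, the myeloperoxidase of granulocyte precursors (chromosome 11, 87793784 to 87804412), stood at 3.299, 3.27, 2.42 and 3.62 CPM in wild type and at 10.3, 10.9, 17.1 and 14.8 CPM in homozygous replicates 1 to 4. Every homozygous library lay far above every wild type library (2.06, SE 0.20, adjusted p = 2.31e-07). S100a9, a calcium-binding protein of neutrophils (chromosome 3, 90692630 to 90695721), had 0, 0, 2 and 0 counts in the wild type libraries and 18, 10, 47 and 32 counts in the homozygous libraries (edgeR adjusted p = 0.000309). It passed the filter on low counts through 3 homozygous libraries and 1 library of the other 5 groups, so it had to differ and its call is given as a description. It is counted among the 8 that rose. The ratio of the summed counts per scaled total was 70.8, with an exact 95% interval of 19.1 to 592 that covers counting error only. Only 6 of the 18 granulocyte genes listed were tested. Lyz2, a lysozyme gene, stood at 2.403, 2.62, 2.68 and 4.54 against 3.55, 3.31, 6.804 and 8.55 CPM with overlapping groups (0.87, adjusted p = 0.171), and Prtn3, a granule protease, at 3.12, 2.62, 2.77 and 2.69 against 2.87, 3.22, 3.1 and 3.79 CPM (0.20, adjusted p = 0.689).

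Without the filter on low counts, 21203 genes were tested and 226 called, and further granulocyte genes were among them. S100a8, the partner of S100a9 in calprotectin, had 6 counts in all wild type libraries and 87 in all homozygous libraries (ratio 19.2, 95% interval 8.47 to 53.8, edgeR adjusted p = 6.8e-05 without the filter). Ms4a3, a membrane protein of granulocyte precursors, had 2 counts against 21 (ratio 13.9, interval 3.4 to 122, adjusted p = 0.0218). Both intervals cover counting error only, not the spread between libraries. Ngp and Fcnb, granule proteins, had 0 counts in wild type and 18 and 11 in the homozygous libraries, and Gfi1, a repressor that directs granulocyte formation, had 4 against 17, but these 3 were not called (adjusted p = 0.0653, 0.0983 and 0.153). Elane, the neutrophil elastase, had 6 against 12 counts (adjusted p = 0.588), and Ctsg had 0 CPM throughout. Camp, Cebpe, Cd177, Ltf and Lyz1, also granulocyte genes, had 4, 7, 2, 1 and 6 counts in wild type. They had 9, 11, 3, 5 and 6 in homozygous libraries and were not called (edgeR adjusted p = 0.576, 0.678, 0.851, 0.588 and 0.948). The sum of the 5 granulocyte precursor markers Mpo, Elane, Prtn3, Ctsg and Ms4a3 ran from 5.19 to 6.53 CPM in wild type and from 13.8 to 21.0 CPM in homozygous libraries. The 2-sided exact permutation p was 0.0286, the smallest that 4 against 4 can give, and 0.343 after adjustment over 12 marker lists. Mpo carried most of this sum in the homozygous libraries, while in wild type Mpo and Prtn3 carried similar parts.

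Called genes of macrophages and lymphoid cells rose by less than Mpo. Stab2, a scavenger receptor of sinusoidal vessels and macrophages, stood at 0.968, 0.736, 0.951 and 0.421 CPM in wild type and 1.36, 2.37, 1.98 and 2.47 CPM in homozygous libraries (1.35, SE 0.26, adjusted p = 0.0061). F13a1, the coagulation factor XIII subunit made by macrophages, stood at 2.94, 2.7, 5.102 and 2.19 against 7.25, 9.41, 5.08 and 11.5 CPM, where wild type replicate 3 and homozygous replicate 3 overlapped (1.37, adjusted p = 0.00877). Mrc1, the mannose receptor, stood at 5.2, 3.52, 8.91 and 5.05 against 8.91, 10.2, 9.65 and 12.9 CPM (0.88, adjusted p = 0.0123). Gimap9 and Gimap4, neighbouring genes for GTPases of lymphoid cells on chromosome 6, rose by 0.89 and 0.51 (adjusted p = 0.00048 and 0.0388). Il2rg, the shared gamma chain of interleukin receptors, rose from 0.789, 0.818, 1.04 and 1.35 to 2.04, 2.204, 1.55 and 2.73 CPM (1.12, adjusted p = 0.0235). Coro1a, an actin-binding protein of leukocytes, fell from 16.4, 19.6, 18.8 and 18.3 to 12.98, 13.8, 12.2 and 13.6 CPM (−0.47, adjusted p = 0.00595).

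Most members of these lists were not called. Of 19 macrophage genes tested 3 rose (15.8%, against 1.53% of all genes tested). Csf1r, the growth factor receptor that defines the lineage, stood at 15.1, 11.6, 12.5 and 10.01 CPM against 9.66, 12.97, 11.97 and 14.4 CPM (−0.03, adjusted p = 0.956). The macrophage marker sum ran from 33.2 to 48.0 CPM in wild type and from 37.1 to 53.8 CPM in homozygous libraries (exact permutation p = 0.286). edgeR called 0 of 20 primitive erythroid genes (0 at an unadjusted p under 0.05, 0 called by DESeq2 or limma voom), although 18 had values above 0, with a median of 0.32. Hbb-y, the embryonic beta-like globin, stood at 1282, 809, 1025 and 1862 CPM in wild type and 919, 972, 991 and 2871 CPM in homozygous libraries (adjusted p = 0.836). Their marker sum was 7400 CPM in homozygous replicate 4 and 2442 to 2659 CPM in the other 3 homozygous libraries, against 1942 to 4848 CPM in wild type. The share of blood in a dissected arch was not measured, and its part in these differences was not tested. edgeR also called 0 of 12 platelet genes (1 at an unadjusted p under 0.05, 0 called by DESeq2 or limma voom). Of 25 endothelial genes Stab2 rose and Nr2f2 fell (8%, against 1.53% of all genes tested). Pecam1, which marks all endothelium, stood at 0.07 (SE 0.07). Without both replicate 2 libraries the calls of Stab2, F13a1, Mrc1, Il2rg and Gimap4 were lost (adjusted p = 0.0846, 0.0997, 0.0997, 0.16 and 0.261), and those of Mpo, Gimap9 and Coro1a were kept. S100a9, which had to differ, is left out here. Single libraries ended the calls of Mrc1 (homozygous replicate 4, 0.0573), Il2rg (wild type replicate 1 or 2, homozygous replicate 1, 2 or 4, up to 0.097) and Gimap4 (all but homozygous replicates 1 and 3, up to 0.145).

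**Figure D3:**
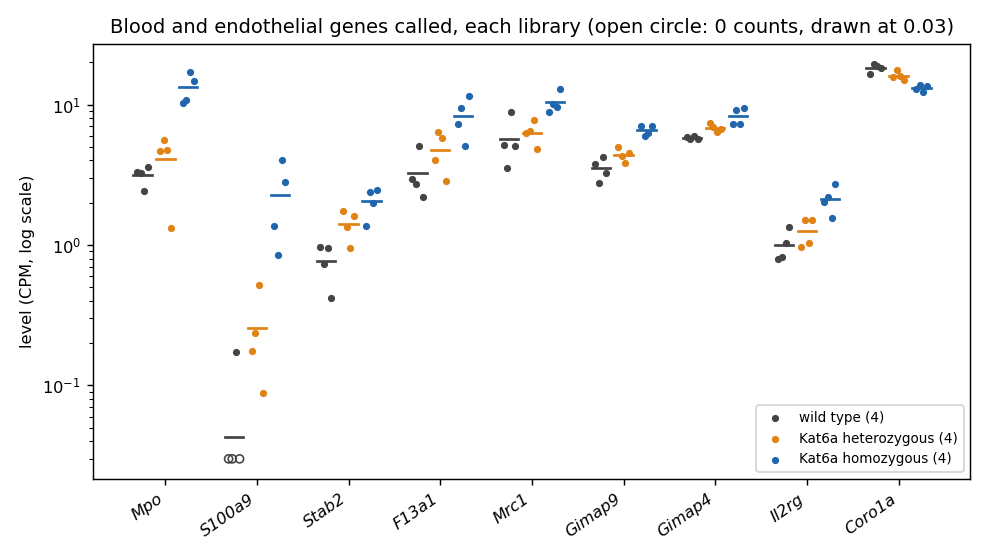
Level in CPM (log scale, y axis) of 9 called blood and endothelial genes in each wild type (grey), Kat6a heterozygous (orange) and Kat6a homozygous (blue) library, with a bar at each group mean and open circles, drawn at 0.03, for libraries with 0 counts. Mpo lies at 2.42 to 3.62 CPM in wild type and 10.3 to 17.1 CPM in homozygous libraries, and Coro1a is the one gene drawn that is lower.

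The stretch of 250 bases before the annotated start is shown for 2 homeobox genes that fell, Emx2 and Gbx2, and 2 granulocyte genes that rose, Mpo and S100a9, since the results turn on them. The sequences are from RefSeq in the GRCm38.p6 build, read 5′ to 3′ along the gene, with CG dinucleotides in capitals.
Emx2, chr19:59458440-59458689, plus strand: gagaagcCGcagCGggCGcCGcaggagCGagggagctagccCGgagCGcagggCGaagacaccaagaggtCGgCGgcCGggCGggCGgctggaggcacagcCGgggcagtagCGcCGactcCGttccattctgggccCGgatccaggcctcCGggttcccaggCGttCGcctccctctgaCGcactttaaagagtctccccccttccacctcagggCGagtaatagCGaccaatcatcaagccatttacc
Gbx2, chr1:89931177-89931426, minus strand: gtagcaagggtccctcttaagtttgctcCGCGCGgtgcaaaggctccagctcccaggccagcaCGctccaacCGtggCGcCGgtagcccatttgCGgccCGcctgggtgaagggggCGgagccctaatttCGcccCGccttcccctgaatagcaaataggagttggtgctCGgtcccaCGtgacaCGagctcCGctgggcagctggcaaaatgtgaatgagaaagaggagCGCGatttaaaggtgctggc
Mpo, chr11:87793534-87793783, plus strand: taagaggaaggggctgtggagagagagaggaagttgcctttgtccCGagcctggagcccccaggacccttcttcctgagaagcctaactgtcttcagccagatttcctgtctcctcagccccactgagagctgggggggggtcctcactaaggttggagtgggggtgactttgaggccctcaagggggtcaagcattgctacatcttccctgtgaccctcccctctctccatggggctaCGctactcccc
S100a9, chr3:90695722-90695971, minus strand: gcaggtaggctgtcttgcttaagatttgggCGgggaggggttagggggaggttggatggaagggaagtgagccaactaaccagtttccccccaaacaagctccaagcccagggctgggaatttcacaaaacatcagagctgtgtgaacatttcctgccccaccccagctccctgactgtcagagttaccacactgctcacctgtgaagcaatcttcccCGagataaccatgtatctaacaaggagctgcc
The windows of Emx2 and Gbx2 hold 24 and 18 CG dinucleotides, and those of Mpo and S100a9 hold 2 each. These counts do not stand for the genes called lower or higher. Windows with few and with many CG dinucleotides occur in both sets. The table used holds such windows for 48 of the 68 genes called higher and 96 of the 154 called lower, under 80% of either, so a comparison of base composition between the sets is void and none is given.

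**Figure D4:**
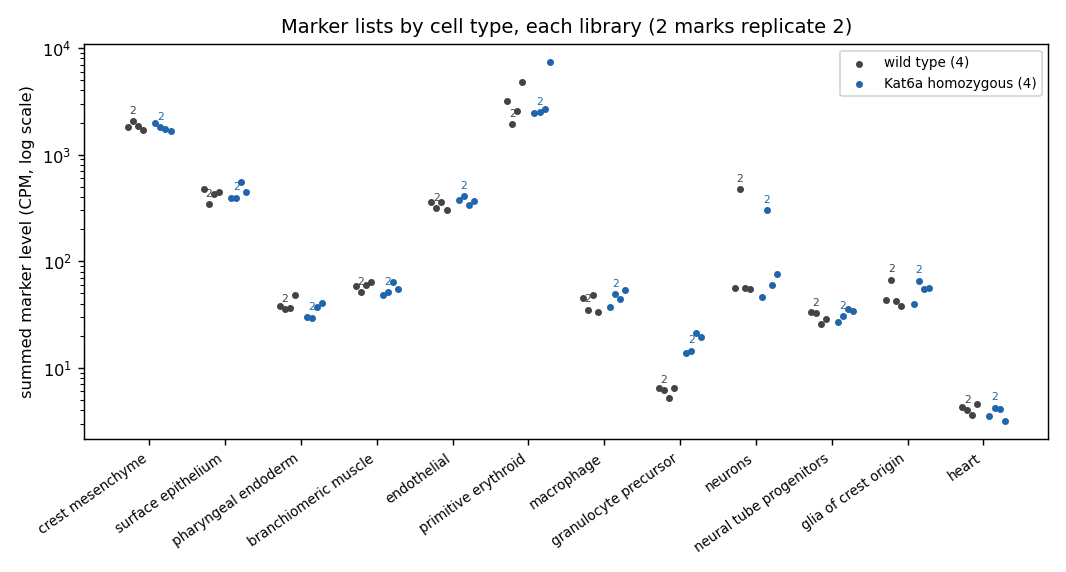
Summed level in CPM (log scale, y axis) of 12 marker lists (x axis) in each wild type (grey) and homozygous (blue) library, with replicate 2 of each group marked by the digit 2. The neuron sum is high in replicate 2 of both groups, the primitive erythroid sum in homozygous replicate 4, and the granulocyte precursor sum is the one list in which the groups do not overlap.

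Matrix genes, which encode the material between cells, moved in both directions: 5 of 179 tested rose and 11 fell (8.94%, against 1.53% of all genes tested), and their median was −0.0045. Of 38 collagens tested, 2 rose and 3 fell (13.2%, against the same 1.53%). Col8a2, a short-chain collagen of sheet-like matrices (chromosome 4, 126286794 to 126314330), stood at 30.2, 31.3, 41.8 and 28.7 CPM in wild type and at 15.5, 10, 15.7 and 14.3 CPM in homozygous libraries (−1.24, SE 0.13, adjusted p = 2.86e-06). Cartilage collagen Col2a1 stood at 988, 959, 914 and 884 against 773, 773, 787 and 742 CPM, a small fall with little spread (−0.28, SE 0.07, adjusted p = 0.0393). Its partner Col9a1 stood at 209, 223, 242 and 211 against 191, 175, 167 and 177 CPM (−0.32, adjusted p = 0.0139). Col6a3, of microfibrils around mesenchymal cells, stood at 12.6, 15.5, 14.2 and 7.91 against 27.9, 14.6, 30.7 and 20.7 CPM, with homozygous replicate 2 inside the wild type range (0.90, SE 0.21, adjusted p = 0.0335). Col3a1, a fibrillar collagen, stood at 580.3, 629, 709 and 608 against 809, 725, 754 and 707 CPM, with overlap by 1 library (0.25, adjusted p = 0.0351). The other 33 of 38 collagens were not called, and Col1a1 and Col1a2, the chains of the main bone and skin collagen, stood at −0.03 and 0.06.

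Among 56 matrix glycoproteins tested, 5 fell and 1 rose (10.7%, against 1.53% of all genes tested). Smoc1, a calcium-binding protein of basement membranes that modulates BMP signals (chromosome 12, 81026808 to 81186414), stood at 170.4, 146, 154 and 147 CPM in wild type and 90.8, 61.03, 96.8 and 64.7 CPM in homozygous libraries (−0.98, SE 0.10, adjusted p = 1.77e-06). Its relative Smoc2 on another chromosome stood at 15.9, 17.6, 24.2 and 16.7 against 6.19, 5.43, 11.5 and 4.67 CPM (−1.41, SE 0.22, adjusted p = 0.000931). Fbln5, a fibulin of elastic fibres, stood at 21.3, 23.4, 25.5 and 20.7 against 14.2, 11.3, 14.5 and 13.1 CPM (−0.77, adjusted p = 3.57e-05). Ccn2, the connective tissue growth factor, stood at 33.3, 39.1, 36.6 and 34.3 against 23.2, 15.2, 26.2 and 20 CPM (−0.76, adjusted p = 0.00025). Per kilobase of gene model, Smoc1 had the highest level of these 4 in wild type, at 44.2 CPM per kb, and stood at 22.4 CPM per kb in homozygous libraries. Emilin3 fell by 0.50 and Pcolce, an enhancer of procollagen processing, by 0.40.

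Postn, a matrix protein of periosteum and periodontal ligament (chromosome 3, 54359267 to 54391041), rose with little spread, from 28.4, 28.8, 28.9 and 27.6 CPM in wild type to 44.1, 53.3, 45.2 and 53.9 CPM in homozygous libraries (0.79, SE 0.07, adjusted p = 7.05e-08). Has2, the hyaluronan synthase of embryonic mesenchyme, stood at 39.5, 38.2, 42.2 and 36.9 against 46.8, 51.7, 48.8 and 53.2 CPM (0.35, adjusted p = 0.00512). Loxl2, a collagen cross-linking enzyme, rose by 0.27 (adjusted p = 0.0361). Glypicans Gpc3 and Gpc1, heparan sulphate proteoglycans of the cell surface, fell by 0.22 and 0.20 from 800.4 and 306 CPM (adjusted p = 0.0202 and 0.0433). edgeR called 0 of 11 laminins (1 at an unadjusted p under 0.05, 0 called by DESeq2 or limma voom). Fn1, fibronectin, stood at 0.19 (SE 0.10, adjusted p = 0.405), and Vcan, versican, at 0.36 (SE 0.12, adjusted p = 0.167), with overlapping groups.

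The matrix calls differed in how far they rested on single libraries. Those of Postn, Col8a2, Smoc1, Smoc2, Fbln5, Ccn2 and Pcolce were kept with any single library or both replicate 2 libraries left out. Col9a1 and Has2 were kept without any single library and lost without both replicate 2 libraries (adjusted p = 0.0909 and 0.0907). Gpc3 lost its call without homozygous replicate 2 or 4 or wild type replicate 4 (up to 0.0588), and Col6a3 without homozygous replicate 1 or 3 or wild type replicate 1 or 4 (up to 0.121, and 0.247 with the 8 libraries alone). Without both replicate 2 libraries Gpc3, Gpc1, Emilin3, Loxl2, Col2a1 and Col3a1 were not called (adjusted p = 0.144, 0.257, 0.278, 0.192, 0.176 and 0.138). Emilin3 and Loxl2 each lost theirs without 5 of the single libraries, and Col2a1, Col3a1 and Gpc1 without 6 (up to 0.112, 0.155, 0.103, 0.155 and 0.155).

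**Figure D5:**
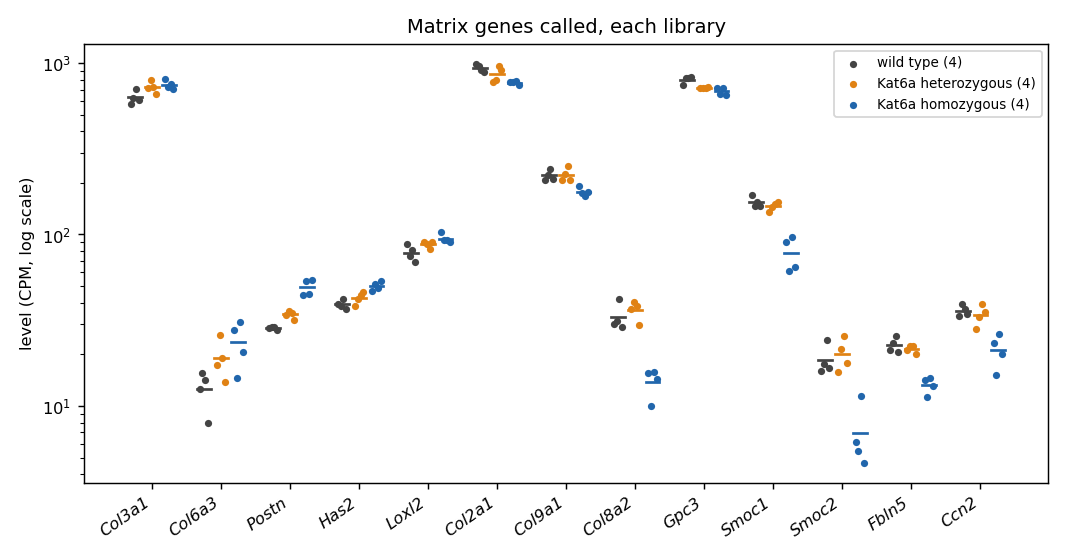
Level in CPM (log scale, y axis) of called matrix genes in each wild type (grey), Kat6a heterozygous (orange) and Kat6a homozygous (blue) library, with a bar at each group mean. Col8a2, Smoc1, Smoc2, Fbln5 and Ccn2 are lower in all homozygous libraries with heterozygous libraries near wild type, and Postn lies at 44.1 to 53.9 CPM in homozygous against 27.6 to 28.9 CPM in wild type libraries.

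Genes of epithelium, muscle and signalling pathways gave few calls. Elf5, an ETS factor of epithelia, rose from 0.43, 0.491, 0.778 and 0.673 to 1.89, 1.53, 2.84 and 1.76 CPM (1.803, SE 0.33, adjusted p = 0.00275), while the surface epithelium markers summed to 341 to 479 CPM in wild type and 395 to 553 CPM in homozygous libraries. Il1rl2, the receptor of interleukin 36 cytokines, rose from 1.08, 1.23, 1.56 and 1.09 to 2.94, 2.71, 3.1 and 2.73 CPM (1.23, adjusted p = 0.00218), and Hpgd, an enzyme that breaks down prostaglandins, from 3.16, 3.19, 4.32 and 3.79 to 5.96, 6.61, 7.32 and 6.17 CPM (0.86, adjusted p = 0.00218). Ccr1, a chemokine receptor of leukocytes, rose by 1.30 (adjusted p = 0.0263) and lost its call without 5 of the single libraries (up to 0.0832) and without both replicate 2 libraries (0.0983). Msc, a bHLH repressor of branchial muscle precursors, fell by 0.93 and lost its call likewise without 5 (up to 0.176) and without both replicate 2 libraries (0.162). Crabp1, which binds retinoic acid in crest cells, was the one called of 18 retinoic acid genes (5.56%, against 1.53% of all genes tested). It stood at 241, 334, 258 and 292 against 219, 196, 220.1 and 206 CPM (−0.42, adjusted p = 0.00526, and 0.0949 without both replicate 2 libraries). Foxd1 was the one called of 17 hedgehog genes (5.88%), and Smad9 and Id2 were the ones called of 25 BMP and TGF-beta genes (8%). A single call is the smallest share above 0 that a list can give. edgeR called 0 of 16 Wnt and 0 of 18 FGF genes. At an unadjusted p under 0.05 these were 4 and 2 genes, and DESeq2 called 1 and 0, limma voom 2 and 0.

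The lists that stand for general cell state held no call. At the 1.53% called of all genes tested, lists of this size would hold few calls. edgeR called 0 of 15 checkpoint genes, 0 of 23 cell cycle genes, 0 of 14 immediate early and heat shock genes, 0 of 18 glycolysis and hypoxia genes and 0 of 8 genes of the Kat6a complex. Over the 78 genes of these lists, 6 had an unadjusted p under 0.05 (7.69%, beside 13.6% of all genes tested). Their median log2 fold change was −0.02, and DESeq2 and limma voom called 0. Cdkn1c and Trp53, which restrain the cell cycle, stood at −0.12 and −0.06, and Top2a, which marks dividing cells, at 0.04 (SE 0.06). Kat6b, the close relative of Kat6a, stood at 59.5, 55.1, 57.6 and 43.3 against 61.6, 61.4, 67.4 and 56.6 CPM (0.19, adjusted p = 0.285). Crest mesenchyme markers summed to 1687 to 2074 CPM in wild type and 1668 to 1988 CPM in homozygous libraries (exact permutation p = 0.571).

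The heterozygous levels, which carry no adjustment for the facility of replicate 4, are given beside the others. Against Kat6a heterozygous libraries, edgeR called 93 of 14506 genes (0.641%) in the homozygous libraries, 76 lower (0.524%) and 17 higher (0.117%), in a comparison that shares the homozygous libraries with the one above. Emx2 stood at 21.3, 23.6, 27.3 and 26.3 CPM in heterozygous libraries, within or above the wild type range (homozygous minus heterozygous −1.54, adjusted p = 0.00291). Osr1 stood at 11.9, 15.2, 18.1 and 12.3 CPM and Col8a2 at 36.7, 40.1, 38.1 and 29.7 CPM there (adjusted p = 0.00875 and 8.96e-07). Smoc1, Nptx1 and Zmat4 had heterozygous means of 146, 7.44 and 14.3 CPM, beside 154, 7.54 and 14.4 CPM in wild type and 78.3, 2.03 and 5.36 CPM in homozygous libraries. Mpo stood at 4.64, 5.62, 4.77 and 1.33 CPM in heterozygous libraries, below every homozygous library (adjusted p = 0.000138), and the library at 1.33 CPM was replicate 4, of the other facility.

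Other genes had heterozygous levels near the homozygous ones. Runx2 stood at 4.29, 4.83, 5.47 and 4.97 CPM in heterozygous libraries, all above the wild type range (homozygous minus heterozygous −0.14, adjusted p = 0.891). Barx1 stood at 102, 103, 116 and 120.4 CPM, all below the wild type range (−0.06, adjusted p = 0.957), and Creb5 at 3.5, 5.46, 3.12 and 2.84 CPM (0.04, adjusted p = 0.986). Six3 stood at 0.7, 0.87, 1.302 and 1.51 CPM, between both groups, without a called difference from the homozygous libraries (−1.28, adjusted p = 0.236). In the heterozygous against wild type comparison of the same fit 0 genes were called (0.0%), with 1648 at an unadjusted p under 0.05, 80 called by DESeq2 and 0 by limma voom, so no heterozygous level given here passed edgeR's test against wild type.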

How the data were processed

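Kat6a homozygous and wild type libraries were taken by the genotype in the labels. Per the labels' protocols, libraries were made with a stranded mRNA kit from arch RNA. Per the submitters' processing notes, CASAVA 1.8.2, featureCounts and the mm10 build were used. For the aligner, the annotation release and the strand setting of the counting, nothing is given in the sources used here. The authors deposited raw counts per gene. Entries without a gene identifier (0.182% to 0.259% of the counts) were left out, and 25275 of 26611 identifiers matched a RefSeq symbol.

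Counts were filtered by group (14506 genes kept), scaled by TMM and fitted with edgeR 4.0.16 in R 4.3.3 (robust quasi-likelihood, 6 group means and facility, 24 libraries). Benjamini-Hochberg adjustment ran over all genes tested. Alternatives used DESeq2 1.42.0 and limma 3.58.1, and their counts for heterozygous against wild type libraries were added after seeing the data. On simulated counts (14406 genes, this comparison), 72% of 1.5-fold and 86.9% of 2-fold changes were recovered, with 8 false calls of 166. The simulated libraries were drawn independently, without the replicate 2 difference or a facility effect. These rates need not hold for the real libraries. Marker sums were compared by exact permutation over libraries.

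The libraries, gene lists and rules were chosen with earlier results of these data known. The text names Kat6a, up to 12 called genes per direction by size (mean of at least 1 CPM, groups apart), up to 6 called and 3 abundant uncalled members of each of 46 lists, and called genes within 5 Mb of Kat6a. Some genes under this rule are not reported here. Csf1r, Col1a1, Col1a2, Foxc2, Foxf1, Foxf2, Kat6b, Otx2, Pecam1, Vcan, Ngp, Fcnb, Gfi1, Elane, S100a8 and Ms4a3 were added to these with their values already in view. So were Camp, Cebpe, Cd177, Ltf and Lyz1. What 1 sample's origin is beyond "biological replicate" is not given, so p-values measure the spread between these samples.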

Additional observations from a re-analysis of the deposited data

Results flagged for a closer look

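In 7 of 154 groups of 4 libraries (4.55%), the highest or lowest library lay further from the others than Dixon's 95% critical value allows, where chance gives about 1 in 20. En2 was lowest in wild type replicate 3, at 0.519 CPM beside 0.925 to 0.982 CPM in the others. Pcdh8 was highest in homozygous replicate 4, at 0.705 CPM beside 0.170 to 0.226 CPM, and S100a9 was highest in wild type replicate 3, at 0.173 CPM beside 0 CPM. Slc8a3 was highest in wild type replicate 1, at 5.20 CPM beside 3.80 to 4.04 CPM. The summed neuron markers were highest in wild type replicate 2, at 477 CPM beside 54.5 to 56.3 CPM, and in homozygous replicate 2, at 301 CPM beside 46.5 to 75.6 CPM. The summed primitive erythroid markers were highest in homozygous replicate 4, at 7400 CPM beside 2442 to 2659 CPM.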

How the results depend on the processing

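None of 74 called genes followed singly changed sign under any of 23 alternatives, 15 were called in every alternative that gave a value, and 48 kept the call without any single library. S100a9, whose call is a description only, is among the 15 and the 48. Of 222 genes called (68 higher, 154 lower), RLE scaling kept 219, and DESeq2, which called 306 (106 higher), also kept 219. limma voom with quality weights called 419 (130 higher, 289 lower). Batch 2 alone gave 98 (30 higher, 68 lower), and the 2 groups alone 64 (14 and 50). Without both replicate 2 libraries 73 were called (19 and 54), of which 69 were among the 222. Alternatives chosen after seeing the data gave 83 without replicate 2 of 4 groups (23 and 60), 20 with the 2 groups alone and no replicate 2 (5 and 15), 415 with robust limma voom (130 and 285) and 318 with the length offset. Leaving out 1 library gave 122 (homozygous replicate 1) to 444 (wild type replicate 1), with 32 to 197 higher and 90 to 247 lower. It gave 142 without wild type replicate 2 and 141 without homozygous replicate 2. The cause was not tested. Against heterozygous libraries, 93 calls became 147 with DESeq2 and 49 in batch 2.

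A replicate block gave 292 calls over all libraries, 168 (45 higher) with the 2 groups alone and 106 against heterozygous libraries. The labels do not say what a number pairs. Deviations of same-numbered wild type and homozygous libraries correlated at 0.09, 0.57, 0.15 and 0.30, and wild type replicate 3 correlated best with homozygous replicate 1 (0.19). Single-digit counts in some homozygous or wild type libraries limit at least En2, Six3, Pcdh8, S100a9, Bhlhe22, Elf5, Stab2 and Ccr1.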

Other observations

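The genes in this part are not named by the rule and were picked with their values already in view. Bmi1 and Skida1 lie 628.6 kb apart on chromosome 2 and moved in opposite directions. Bmi1, a Polycomb subunit that sustains stem cells, stood at 101, 101, 106 and 98.2 CPM in wild type replicates 1 to 4 and at 138, 134, 134 and 129 CPM in homozygous replicates 1 to 4 (log2 fold change 0.40, SE 0.06, edgeR adjusted p = 0.000113). Skida1 stood at 85.3, 82.8, 73.4 and 71.7 CPM against 53.8, 46.5, 48.5 and 47.1 CPM (−0.68, SE 0.06, adjusted p = 6.09e-08). Enpp2, which makes the signalling lipid lysophosphatidic acid, fell by 0.81 from 47.4 CPM (adjusted p = 1.77e-06). Nr5a2, a nuclear receptor gene, and Hlx, a homeobox gene that none of the lists held, fell by 1.00 and 0.94 (adjusted p = 0.00122 and 0.00332). Kitl, the ligand of the Kit receptor of blood, pigment and germ cells, rose by 0.46 (adjusted p = 0.00289), while Kit itself stood at −0.03. Vcam1, an adhesion molecule for leukocytes, rose by 0.41 (adjusted p = 0.0155). Both calls were lost without both replicate 2 libraries (0.0659 and 0.0949), and that of Vcam1 also without homozygous replicate 3 or wild type replicate 4 (up to 0.0597) and with only the 8 libraries in the fit (0.144).

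Within 200 kb of each other lay 13 pairs of called genes, of which 12 moved the same way. The share over all genes tested was not computed, and 154 of the 222 called genes were lower, so these counts are a description only. Of the 12, 7 were pairs of Dlx genes or their antisense transcripts. The others were Emx2 with Emx2os (−1.11), Smoc1 with Slc8a3 (11.5 kb apart), Tshz1 with Zadh2, Gimap9 with Gimap4 (5.5 kb apart) and Gpc1 with Rnpepl1. Creb5 rose and its neighbour Tril fell. Dlx4 overlaps Dlx4os, and Dlx1 overlaps Dlx1as. With the strand setting of the counting not given, reads from where these pairs overlap cannot be told apart. The RefSeq gene models of Emx2 and Emx2os do not overlap, with a gap of 55 bases.

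Without the filter on low counts, edgeR called 16 genes that the filter had removed, 11 higher and 5 lower. Among the higher ones were Lcn2, Olfm4, Cd84 and Ms4a3, genes of myeloid cells, and the stefin genes Stfa1, Stfa3, Cstdc4 and Cstdc5. The stefin genes are near-identical copies, so reads could be split among them in counting and their single values are uncertain. Cstdc4 had 0 counts in wild type and 25 in homozygous libraries. Among the lower ones was the homeobox gene Uncx, with 19 counts against 0. Bmp3, a BMP family member, had 24 counts against 0, at least 6.04-fold lower against a floor of 3 counts over the group.

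Of 80 cytosolic ribosomal protein genes tested, 12 fell and 0 rose (15%, against 1.06% of all genes tested lower), with a median of −0.10. Their summed level ran from 13323 to 16356 CPM in wild type and from 12454 to 13870 CPM in homozygous libraries. With a gene length trend of each library as an offset, an alternative chosen after seeing the data, 11 were lower and the median was −0.05. The median gene length was 3496 bases among genes called higher, 2446.5 among those called lower and 2846.5 over all genes tested. The part of RNA quality in this was not tested.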
